A study of Homo sapiens with 2 samples.

Results

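Ubiquitin ligases pick the proteins that receive ubiquitin, a small protein tag that often sends its carrier to the proteasome. RING-type ligases hold a charged E2 enzyme and the substrate side by side. HECT-type ligases first take ubiquitin onto a cysteine of their own. Cullin-RING ligases are assembled from parts, in which a cullin scaffold carries a RING subunit at one end and, at the other, adaptors with exchangeable receptors such as the F-box proteins. The mRNAs of these ligases were followed in RNA that was recovered with CNBP, whose zinc fingers bind G-rich single-stranded nucleic acids, in HCT116, a widely used line of human colon cancer cells.

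The genes were taken by symbol from a table of 10836 protein-coding genes, and 150 fitted the rule. These were 57 numbered RNF genes (RING finger, RNF43 left out), 38 numbered TRIM genes (tripartite motif, most with a RING), 44 F-box genes (10 FBXL with leucine-rich repeats, 27 FBXO with other domains and 7 FBXW with WD40 repeats), 8 cullins and the 3 giant HECT-type genes HUWE1, HERC1 and HERC2. Membership was decided by symbol alone, but the rule and the gene lists below were chosen with earlier results of these data known. Each gene of the table reached 0.5 FPKM in at least 1 library, so ligase genes scarce in both could not appear. RefSeq names 235 protein-coding genes by the same rule, of which 146 had a row under the same symbol. Among older symbols in the table, FBXO18 is now FBH1 and RNF219 is OBI1.

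Of the 2 libraries, 1 was made from the CNBP immunoprecipitate (RIP) and 1 from input RNA, both from HCT116 cells that were crosslinked with ultraviolet light and sonicated. With 1 library per group there was no replicate, no spread and no test, and every comparison below is between these libraries. A control antibody library was not analysed here, so recovery that does not depend on CNBP is unknown. FPKM, fragments scaled to transcript length and to the number of mapped fragments, summed to 109684 in the RIP and 214387 in the input. Depth in reads is unknown. In the input the epithelial keratin genes KRT18 and KRT8 had 564 and 433 FPKM, and the epithelial adhesion gene EPCAM had 109 FPKM. The E-cadherin gene CDH1 had 0.415 FPKM there and 3.88 in the RIP, the intestinal factor gene CDX2 had 4.68 and 2.62, and the claudin gene CLDN4 had 21.8 FPKM in the input but was listed at 0 in the RIP.

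Ratios are log2 of RIP FPKM plus 1 over input FPKM plus 1, so a ratio of 2 is 4-fold and 0.58 about 1.5-fold. Where 2 FPKM values stand side by side, the RIP comes first. The pseudocount of 1 makes the ratios of weakly expressed genes smaller. A gene under 0.5 FPKM in the input has a row only through the RIP, so its ratio is above 0 by the floor of the table. The median ligase gene had a ratio of 0.67, beside 0.28 for all rows. Of the 150 genes, 24 (16.0%) were higher in RIP RNA by 4-fold or more, beside 12.5% of all rows, and 7 (4.67%) were at least 4-fold lower, beside 13.5%. At 1.5-fold, 79 (52.7%) were higher and 37 (24.7%) lower, beside 42.6% and 34.7% of all rows, and 34 lay between. The ligase share on the high side was thus near the background at 4-fold, and above it at 1.5-fold. On the low side it was below the background at both limits. Of the 1464 rows at least 4-fold lower, 1112 had 10 FPKM or more in the input and none had under 1. That level was reached by 16 of the 150 ligase genes, beside 2386 of the 10836 rows. The part of input level in the low side was not tested. The shares past 4-fold and 1.5-fold also depend on how the libraries are scaled. When both were rescaled to the mean of their sums, a shift of about 0.97 on the log2 scale, the median of all rows was 0.85 and that of the ligase genes 1.34, with 46 ligase genes past 4-fold on the high side and 4 on the low side, or 101 and 25 past 1.5-fold. The shares of all rows were then 22.6% and 8.18% past 4-fold, and 56.8% and 24.5% past 1.5-fold. When ratios were centred on the median of all rows, 21 passed 4-fold upwards and 12 downwards, beside 9.1% and 16.1% of all rows. Signs below are for FPKM as deposited, and after rescaling 12 of the 48 genes below 0 stood above 0.

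**Figure D1:**
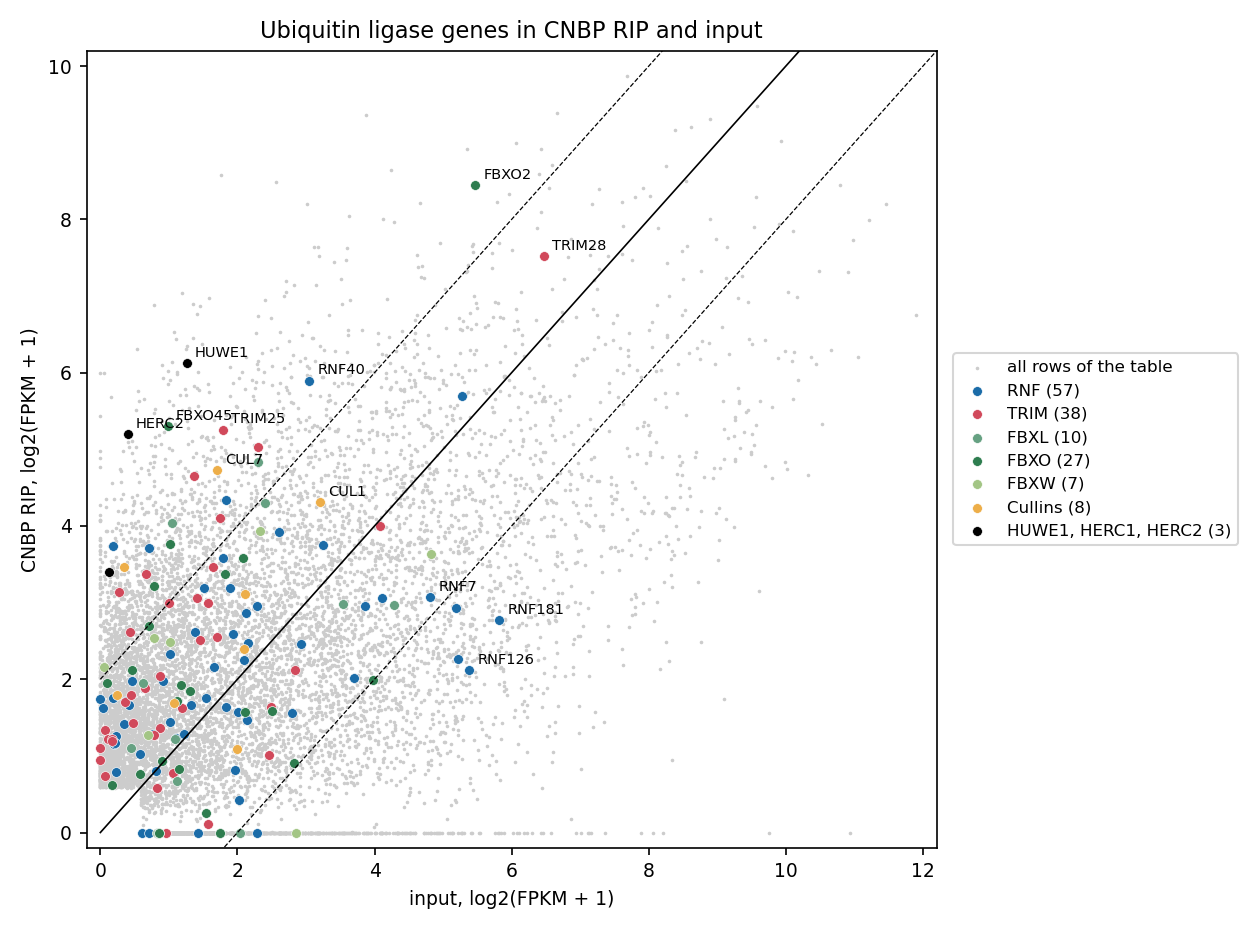
Level of each gene in the CNBP RIP (vertical) against input (horizontal), both as log2(FPKM + 1), 1 library each. Grey points are all 10836 rows, coloured points the 150 ligase genes by class with their number, the solid line marks equal levels and the dashed lines a 4-fold difference. HUWE1, HERC2 and FBXO45 lie far above the upper dashed line, RNF126 and RNF181 below the lower one.

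The classes lay at different heights. The cullins had a median ratio of 1.06 (n = 8), the TRIM genes 1.06 (n = 38), the F-box genes 0.50 (n = 44) and the RNF genes 0.44 (n = 57). Their median inputs, in the same order, were 2.60, 0.886, 1.17 and 2.14 FPKM. Each class held genes under 0.5 FPKM in the input, where the floor of the table sets the sign. Of the TRIM genes 8 (21.1%) were higher by 4-fold or more and none was lower by as much. Of the F-box genes 7 (15.9%) were higher and 2 (4.55%) lower, and of the RNF genes 4 (7.02%) higher and 5 (8.77%) lower. Of the cullins 2 were higher and none lower, in a class of only 8. Of all rows 12.5% were higher and 13.5% lower, so the F-box share on the high side was near that of all rows. Within the F-box genes the FBXW, FBXL and FBXO medians were 1.47, 0.40 and 0.19. Genes of a class are not replicates, so the differences between class medians were not tested. They also moved with the processing: against genes of like locus span the cullin median was 0.27, and against genes of like inferred exonic length the TRIM median was 0.26. Against like length the cullin, F-box and RNF medians were 0.90, 0.52 and 0.14, so the F-box median then lay above that of TRIM genes.

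**Figure D2:**
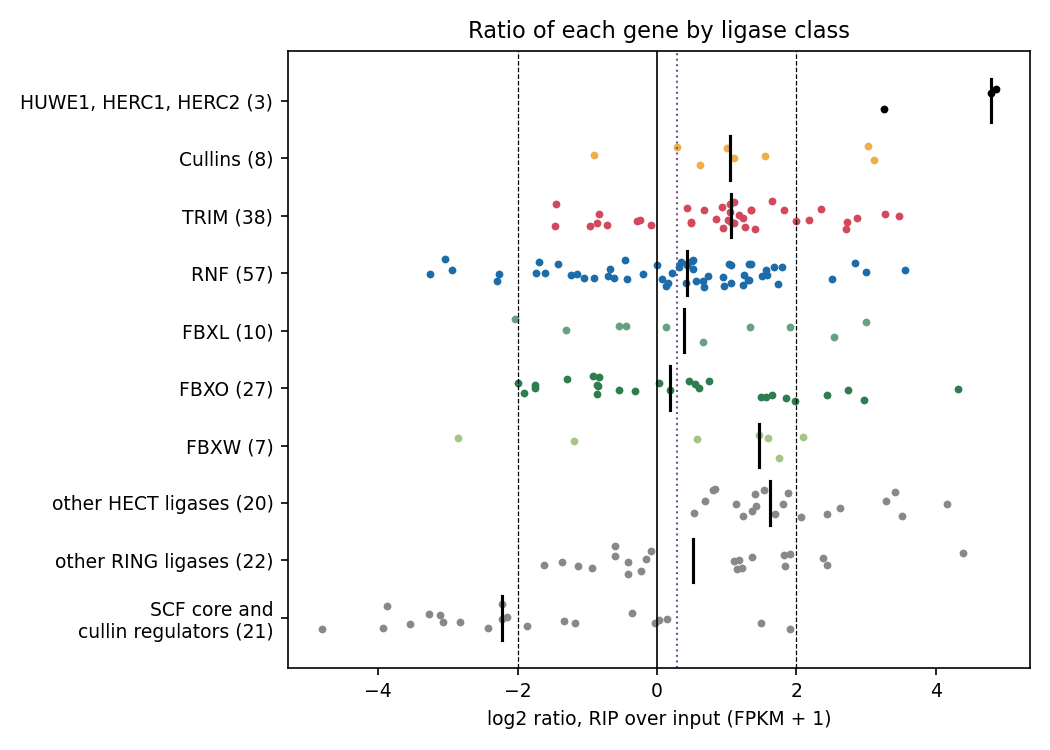
Log2 ratio of RIP over input, from FPKM plus 1, for each gene as a point, by ligase class (coloured) and for 3 lists of other ligases and cullin partners (grey), with the number of genes in brackets. Short black bars are medians, dashed lines mark 4-fold, and the dotted line is the median of all rows (0.28).

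HUWE1, HERC2 and HERC1 encode very large single-chain HECT-type ligases. HUWE1, known for ubiquitinating MYC and the apoptosis regulator MCL1 (ENSG00000086758.15_2, hg19 chromosome X, 53559057 to 53713674), had 68.8 FPKM in RIP RNA against 1.39 in input RNA, a ratio of 4.87 or 29.2-fold. HERC2, a ligase of the DNA damage response (chromosome 15, 28356186 to 28567298), was at 35.7 and 0.319 FPKM, a ratio of 4.80. HERC1 (chromosome 15, 63900817 to 64126141) was at 9.51 and 0.0949 FPKM, a ratio of 3.26. HERC2 and HERC1 were thus scarce in the input, whereas HUWE1 was close to the median input level of the ligase genes (1.31 FPKM). HUWE1 stood at percentile 99.7 of all rows, HERC2 also at 99.7 and HERC1 at 97.3. Relative to the median of genes with a similar span, HUWE1, HERC2 and HERC1 had 3.86, 3.81 and 2.27. Relative to genes of like inferred exonic length they had 3.73, 3.41 and 1.87, which put HERC1 below 4-fold. An inferred length can be a whole fraction of the true one, and this was not checked for these genes.

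The other HECT-type ligases lay on the same side. Of 22 such genes in a list, 20 had a row, all 20 were above 0, and the median was 1.62. Past 1.5-fold upwards were 19 (95%) and past 4-fold 7 (35%), beside 42.6% and 12.5% of all rows. Their median input was 0.425 FPKM, and below 0.5 FPKM in the input the floor of the table sets the sign. Of the 3914 rows under 1 FPKM in the input, 3402 were above 0. SMURF2, which acts on TGF-beta receptors and SMAD proteins, had 29.2 FPKM in RIP RNA against 1.82 in input RNA (ratio 3.42). HERC4 was lowest with a ratio of 0.53. The median of the 20 genes was also 0.53 once that of genes of like inferred exonic length was subtracted.

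The cullins are the scaffolds of the multi-subunit ligases. CUL9 (chromosome 6, 43149913 to 43192325) had 10.0 FPKM in RIP RNA against 0.272 in input RNA, a ratio of 3.12. CUL7, the scaffold that pairs with the F-box protein FBXW8 (chromosome 6, 43005355 to 43021683), was at 25.5 and 2.24 FPKM, a ratio of 3.03. These atypical cullins, which lie close together on chromosome 6, were the only members of the class at least 4-fold higher. CUL5, which serves receptors with a SOCS box, had 2.46 and 0.178 FPKM (1.55). CUL1, the scaffold of the F-box complexes, had 18.8 and 8.17 FPKM (1.11), and was the most abundant cullin in the input. CUL4A and CUL4B, a paralogous pair that binds the adaptor DDB1, had ratios of 1.00 and 0.62, from 7.61 and 3.31 FPKM for CUL4A and 2.22 and 1.10 FPKM for CUL4B. CUL3, which works with BTB-domain receptors, had 4.24 and 3.28 FPKM (0.29). CUL2, the scaffold of the VHL ligase, was the only cullin below 0, with 1.13 FPKM in RIP RNA against 2.97 in input RNA (-0.90).

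Most partners of the cullins lay on the opposite side of the scale. Of 24 listed genes for core subunits and regulators, 21 had a row, with a median ratio of -2.22. Of these, 12 (57.1%) were lower by 4-fold or more, beside 13.5% of all rows, and none was higher by as much. They had a median input of 11.0 FPKM, beside 2.60 for the cullins. The 2386 rows with at least 10 FPKM in the input had a median of -1.84, and 1112 were lower by 4-fold or more. The part of input level in this contrast was not tested. RBX1, the RING subunit of most cullin complexes, was listed at 0 in RIP RNA beside 27.1 FPKM in input RNA, and no fold is given. RNF7, its paralog that serves CUL5 and belongs to the RNF genes above, had 7.42 and 27.0 FPKM, a ratio of -1.74. The F-box adaptor gene SKP1 had 1.27 and 20.9 FPKM (-3.27), and the elongin genes TCEB1 and TCEB2, adaptors of the CUL2 and CUL5 complexes, had ratios of -3.94 and -3.54. NEDD8, the modifier that activates cullins, had 5.89 and 58.7 FPKM (-3.11). Its activating enzyme subunits NAE1 and UBA3 had -3.06 and -0.02. Of the listed UBE2 genes, UBE2M was abundant in both libraries, with 73.2 and 71.4 FPKM (0.03). UBE2F was listed at 0 in RIP RNA beside 6.11 FPKM in input RNA. The subunit genes of the COP9 signalosome, which removes NEDD8, ran from 0.15 (COPS7B) to -3.87 (COPS3). The highest of the list were the cullin exchange factor gene CAND1 and the adaptor gene DDB1. CAND1 had 5.64 and 0.760 FPKM (1.92) and DDB1 18.4 and 5.89 FPKM (1.49). The median of the list was -2.31 after the median of genes of like inferred exonic length was subtracted, and -1.50 after rescaling.

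**Figure D3:**
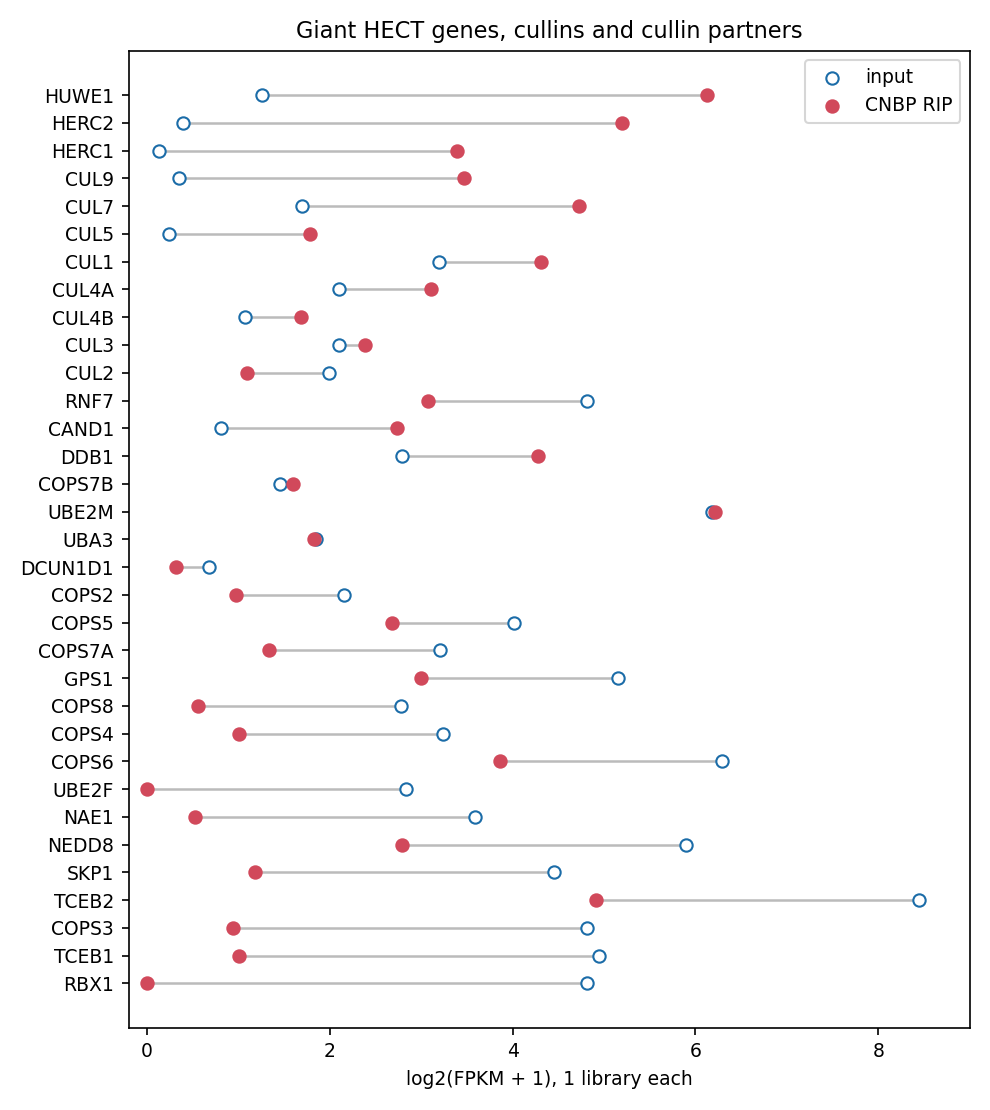
Level as log2(FPKM + 1) in input (open circles) and in the CNBP RIP (filled circles) of the 3 giant HECT-type genes, the 8 cullins, RNF7 and the 21 core subunits and regulators with a row, 1 library each. Filled circles lie to the right of open ones for 7 of 8 cullins, and to the left for 17 of the 21 partners.

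F-box proteins are the substrate receptors of CUL1 complexes. FBXO45, a receptor known from neurons that pairs with the giant ligase MYCBP2 (chromosome 3, 196295482 to 196315930), had 38.4 FPKM in RIP RNA against 0.976 in input RNA, a ratio of 4.32 at percentile 99.3 of all rows. FBXO2, which recognizes N-glycans on misfolded glycoproteins (chromosome 1, 11708424 to 11715842), had 347 and 43.4 FPKM (2.97), the highest RIP level of all 150 genes. FBXL14, known for turnover of the transcription factor SNAI1, had 15.4 and 1.06 FPKM (2.99), and FBXL19, a CpG-binding protein, had 27.6 and 3.92 FPKM (2.54). FBXO41 (2.75) and FBXO21 (2.43) were also at least 4-fold higher. FBXW7, the tumour suppressor that targets MYC and cyclin E, had 3.45 and 0.0362 FPKM (2.10), and FBXO11 lay just short of 4-fold at 1.99. FBXW8 (1.76), FBXW4 (14.3 and 4.05 FPKM) and FBXW2 (1.47) followed in the FBXW group, and FBXL16 (1.91) in the FBXL group.

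At the other end of the F-box genes, FBXO6, a glycoprotein receptor like FBXO2, had 2.98 FPKM in RIP RNA against 14.8 in input RNA (-1.99). FBXO7, a gene of inherited parkinsonism, had 0.882 and 6.08 FPKM (-1.91). FBXL15 (-1.31), FBXO9 (-1.29) and FBXW5 (-1.19) were lower by less. FBXO22 (-0.54), FBXL6 (-0.55), FBXL8 (0.14) and FBXW11 (0.57) lay within 1.5-fold. The signs of FBXL6 and FBXO22 turned after rescaling. FBXW9, FBXL12 and FBXO16 were listed at 0 in RIP RNA, with 6.24, 3.10 and 2.37 FPKM in input RNA. FBXO2, FBXO44 and FBXO6 lie next to each other on chromosome 1 and had ratios of 2.97, -0.91 and -1.99. FBXO2 and FBXO44 overlap on opposite strands, and the sources used here do not say whether reads were assigned by strand.

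TRIM proteins combine a RING with B-boxes and a coiled coil. TRIM25, which ubiquitinates the viral RNA sensor RIG-I (chromosome 17, 54965270 to 54991399), had 37.2 FPKM in RIP RNA against 2.44 in input RNA, a ratio of 3.48. TRIM37, a ligase that limits centriolar material (chromosome 17, 57059999 to 57184282), had 24.1 and 1.58 FPKM (3.28). TRIM39 (2.88), TRIM8 (2.73), TRIM41 (2.71), TRIM65 (2.36), TRIM33 (2.19) and TRIM35 were the other TRIM genes past 4-fold, TRIM35 just at the limit with 0.997 FPKM in input RNA. TRIM39 shares its locus with the read-through gene TRIM39-RPP21 (1.06), also counted among the TRIM genes, so the split between them is uncertain. TRIM28, the corepressor of KRAB zinc finger proteins, was the most abundant ligase gene in the input, with 87.5 FPKM there and 183 in the RIP (1.06). Among the lowest were TRIM16 (0.0833 and 1.98 FPKM, -1.46), TRIM7 (-1.45), the intracellular antibody receptor TRIM21 (-0.86) and TRIM27 (-0.72, but 0.07 after rescaling). TRIM47, with 15.9 FPKM in input RNA, had a ratio of -0.08 (0.83 after rescaling). TRIM16 has a near-identical relative, TRIM16L, with which reads can be shared. A list of innate immune TRIM genes, 6 of 8 with a row, had a median of 1.14 and ran from TRIM25 down to TRIM21.

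The RNF genes held 5 of the 7 ligase genes that were lower by 4-fold or more, beside 4 that were higher by as much. These were 8.77% and 7.02% of the 57 RNF genes, both below the 13.5% and 12.5% of all rows. RNF213, a giant protein with both an ATPase and a RING (chromosome 17, 78234665 to 78372586), had 12.3 FPKM in RIP RNA against 0.131 in input RNA (3.56). RNF168, which ubiquitinates histone H2A at DNA breaks (chromosome 3, 196195654 to 196230639), had 12.1 and 0.641 FPKM (3.00). RNF40 and RNF20, the partners that ubiquitinate histone H2B, had 58.6 and 7.26 FPKM (2.85) and 10.9 and 2.44 FPKM (1.79). RNF19B had 19.3 and 2.57 FPKM (2.51). Of the 5 lowest RNF genes, all but RNF223 were among the more abundant ligase genes in input RNA. RNF126, a ligase of cytosolic protein quality control (chromosome 19, 647526 to 663277), was at 3.34 and 40.6 FPKM, a ratio of -3.26 or 9.60-fold lower. RNF181 (chromosome 2, 85822848 to 85824736) had 5.82 and 55.3 FPKM (-3.04). RNF5, a ligase of the endoplasmic reticulum membrane (chromosome 6, 32146131 to 32148570), was at 3.81 FPKM in RIP RNA (-2.94), and the endosomal ligase gene RNF167 had 6.58 and 35.5 FPKM (-2.27). RNF223 was listed at 0 in RIP RNA and at 3.90 FPKM in input RNA.

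Functional groups among the RING genes differed in their centre. The list of chromatin and DNA damage ligases had a median of 1.30 over 11 genes with a row. Past 1.5-fold were 8 (72.7%) upwards and 2 (18.2%) downwards, beside 42.6% and 34.7% of all rows. Among those upwards, TRIM33, TRIM24 and RNF169 were under 0.5 FPKM in the input, so the floor of the table set their sign. This list ran from RNF168 to RNF2, a Polycomb ligase listed at 0 in RIP RNA beside 1.68 FPKM in input RNA. All 6 RING-between-RING ligases with a row, which work through a cysteine as HECT-type ligases do, were above 0 (median 1.19), from RNF19B down to RNF14 (3.49 and 2.14 FPKM, 0.51). Of these, RNF19A and RNF144A were under 0.5 FPKM in the input, where the floor of the table sets the sign. Membrane-anchored RING ligases had a median of 0.24 over 14 genes, near the 0.28 of all rows (0.89 against 0.85 after rescaling), from RNF128 (2.37 and 0.138 FPKM, 1.56) to RNF5. Of these, 3 (21.4%) passed 1.5-fold upwards and 5 (35.7%) downwards, the latter close to the 34.7% of all rows. These medians are descriptions, with no test between the groups.

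Level and length moved with the ratio. In the 16 ligase genes with at least 10 FPKM in the input the median ratio was -1.25, and only FBXO2, TRIM28 and RNF187 (50.9 and 37.6 FPKM) were above 0. In the 61 genes under 1 FPKM in the input it was 1.10, with 51 above 0. All rows showed the same order, with medians of -1.84 and 0.99 in these ranges, and 427 of 2386 and 3402 of 3914 rows above 0. The input level is part of the ratio. For genes under 0.5 FPKM in the input the sign was fixed by the floor of the table, so these counts are not independent of it. Of the 24 genes at least 4-fold higher, 12 had less than 1 FPKM in the input, so their ratios rest on low input values and on the pseudocount. In total 14 ligase genes were listed at 0 in the RIP (0.526 to 6.24 FPKM in the input), and 3 of the 7 genes at least 4-fold lower were among them. RNF208, TRIM6 and TRIM52 were listed at 0 in the input and had 2.35, 1.15 and 0.920 FPKM in the RIP.

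The table does not state exonic lengths, but they could be inferred for 116 of the 150 genes from the decimals of their FPKM, for some only as a whole fraction of the true length. Across these genes Spearman's rho between inferred length and ratio was 0.34, beside 0.36 over the 8789 rows with a length, and Pearson's r was 0.39 and 0.35. Both are descriptions across genes of the same libraries, in which FPKM itself divides by length. Median ratios were 0.32, 0.71 and 1.35 in the 39 shortest, 38 middle and 39 longest ligase genes. All rows in the same length ranges had -0.20, 0.32 and 1.04. So the ligase genes followed the trend of all genes and lay above it in each range. The part of length in the ratios of single genes was not tested.

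**Figure D4:**
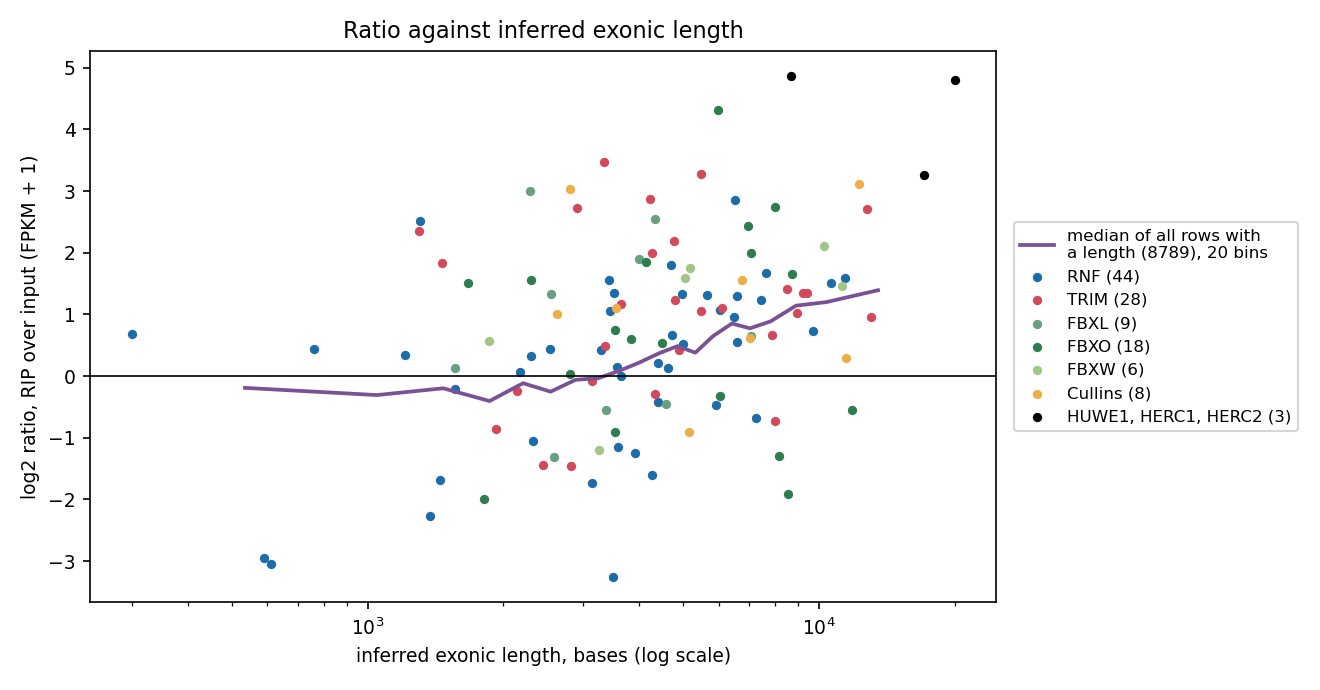
Log2 ratio of RIP over input (vertical, from FPKM plus 1) against inferred exonic length in bases (horizontal, log scale) for the 116 ligase genes with a length, coloured by class. The line joins medians of all 8789 rows with a length in 20 bins, and the giant HECT-type genes lie above it.

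GGAG is a G-rich motif that the study examined for CNBP. RefSeq start sites (GRCh38.p14) were matched for the 78 ligase genes with a single annotated start, and the 50 transcribed bases after the start were searched on the transcript strand. GGAG was present in 34 of 78 (43.6%), beside 44.0% of 5963 rows of the table. It was in 5 of the 14 matched genes past 4-fold upwards and in 2 of the 5 past 4-fold downwards. Median ratios of the ligase genes were 0.53 with and 0.56 without the motif, beside 0.40 and 0.07 over all matched rows. The longer TGGAG, which holds GGAG, was in 7 of 78 (8.97%), beside 10.9%. The search covers only these letters at the start of the transcript, and a match is not a binding site. To show that the motif occurred at both ends of the scale, 30 bases with GGAG in capitals follow, from 3 genes higher and 2 lower in the RIP.
FBXO45 (chr3:196568678-196568707, plus strand, ratio 4.32): caacccgcatggcGGAGccgctggcgcgcc
TRIM25 (chr17:56914015-56914044, minus strand, ratio 3.48): cctcggcggcctcGGAGcgcgggtgcagca
TRIM41 (chr5:181223288-181223317, plus strand, ratio 2.71): gcatcggctgtggGGAGtaccggctgcagt
RNF5 (chr6:32178417-32178446, plus strand, ratio -2.94): acgatcgtgggcaGGAGgtggtttctggtt
RNF126 (chr19:663173-663202, minus strand, ratio -3.26): gtcggccggcgagGGAGcagcaaacggccg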

How the data were processed

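RNA of 1 CNBP immunoprecipitate and 1 input sample from HCT116 cells was sequenced with a stranded kit, per the labels. The authors deposited FPKM per gene. Build hg19, HISAT2, StringTie, cutadapt and FastQC stand in the submitters' processing notes, and versions and roles are not given in the sources used here. All 10836 rows were protein coding. FPKM is not scaled to a common sum, divides by transcript length and carries no read depth, so no interval is given.

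Ratios were log2(RIP FPKM + 1) - log2(input FPKM + 1), as in the study, computed with Python 3.11.15, pandas 2.3.3 and numpy 2.4.6, with plots by matplotlib 3.10.9. No filter was applied. Samples were grouped by title. Members and lists were chosen with earlier results of these data known. Values were named for every cullin and HECT-type member, the 5 highest and 5 lowest RNF, TRIM and FBXO genes and the 3 highest and 3 lowest FBXL and FBXW genes (above 0 in both libraries, mean FPKM 1 or more), the 4 most abundant in each library, the 4 listed at 0 in a library with most FPKM in the other, and the ends of each subclass list. RNF187, TRIM65, TRIM33, TRIM35, TRIM39-RPP21, FBXO28, FBXO31, FBXO4 and single genes of the partner lists were chosen after their values were seen.

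Inferred exonic length was the smallest whole number from 201 to 25000 that gives each FPKM times it at most 6 decimals in both libraries, all other solutions being its multiples. It came out for 91.5% of rows above 0 in both libraries, and for 9.71% after pairing values of different genes. Ratios and lengths were tested on simulated data. Alternatives were other pseudocounts, filters, scaling, centring, and subtraction of the median in 20 bins of span or length. Of the ligase genes, 39 overlapped another row's locus, 8 of them on the same strand. Start sites on chromosome 8 were left out of the motif search. Protein length was planned and not run. Values of some single genes are not reported here.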

Additional observations from a re-analysis of the deposited data

How the results depend on the processing

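With 1 library per group only the size and sign of values could be compared, and a median was taken as moved if it changed by at least 0.58, a count by over 1.5 times. With a pseudocount of 0.1, 56 ligase genes passed 4-fold upwards and 24 downwards, and the TRIM median was 2.07. With 0.5, 14 were at least 4-fold lower. With 5 these were 9 higher and 3 lower, and the TRIM median was 0.34. Among genes reaching 1 FPKM in each library 12 were higher and 4 lower. For the other pseudocounts, this filter and like length, shares of all rows were not computed. Those counts therefore have no background and say nothing particular to ligase genes. Rescaled to the mean of the library sums, 46 were higher and 4 lower, with medians of 1.34 for all ligase genes, 1.03 for RNF genes and 1.91 for cullins. Centring gave 12 lower. The cullin median minus that of genes of like span was 0.27. Minus genes of like inferred exonic length, an alternative chosen after seeing the data and open to 116 genes, 13 were higher and the TRIM median was 0.26. The medians of RNF, TRIM, F-box and cullin genes kept their sign under all alternatives run, but that of FBXO genes alone was -0.25 against like span. Signs turned for single genes. Rescaling gave FBXL6 0.32, FBXO22 0.15, TRIM27 0.071 and TRIM47 0.83. Centring gave FBXL8 -0.15. Subtracting like span gave CUL3 -0.77, FBXL6 0.35, FBXW11 -0.43 and TRIM47 0.82, and like length gave CUL3 -0.91 and CUL4B -0.16. The cause was not tested. No paired analysis was possible because each group has 1 library. The unknown depth limits the reading of every value near 0.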

Other observations

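The study concerned the mRNA of cyclin D1 and a MYC-induced RNA, so ligases known for acting on these proteins were looked up after the values had been seen. Of 5 genes tied to MYC turnover or activity, HUWE1 (4.87), FBXL14 (2.99) and FBXW7 (2.10) were past 4-fold upwards. Of all rows 12.5% were, and of the ligase genes 16%, but so small a set, looked up with values seen, allows no comparison of shares. FBXW7 had 0.0362 FPKM in input RNA, where the floor of the table sets the sign. FBXO28, with 0.776 FPKM in RIP RNA against 1.21 in input RNA, had a ratio of -0.32. SKP2, with 1.41 and 3.13 FPKM, had one of -0.78. FBXO28 was at 0.16 after rescaling to the mean of the library sums, and SKP2 at -0.13. Of 4 F-box genes tied to cyclin D1 turnover, one is SKP2, given above. Of the others, FBXW8 had 4.80 and 0.719 FPKM (1.76), FBXO31 had 9.37 and 2.51 FPKM (1.56), and FBXO4 was listed at 0 in RIP RNA and at 0.807 FPKM in input RNA. These values describe mRNA in 1 RIP and 1 input library.

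Other RING ligases had a median ratio of 0.51 over 22 of 26 listed genes with a row. Past 1.5-fold were 11 (50%) upwards and 6 (27.3%) downwards, not far from the 42.6% and 34.7% of all rows. Of those upwards, MIB1, PJA2, CBL, ARIH1, BARD1, MDM2 and SIAH1 were under 0.5 FPKM in the input. There the floor of the table sets the sign. MIB1, a ligase of Notch ligands, had 22.6 FPKM in RIP RNA against 0.122 in input RNA (4.39), and MKRN1 had 24.8 and 3.77 FPKM (2.44). MKRN2, its paralog, had 0.949 and 4.99 FPKM (-1.62). The breast cancer partners BRCA1 and BARD1 had ratios of 1.84 and 1.37.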
